A study of Rattus norvegicus with 30 samples.

Results

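The 7 genes described here belong to the circadian clock and were chosen by name: Dbp, Per1, Per2, Per3, Bmal1, Npas2 and Nfil3, out of 14557 genes with a named probe set on the Affymetrix Rat Gene 2.1 ST array. The choice was made with earlier results of these data known. Each of the 7 had exactly 1 probe set carrying its symbol alone. Adrenal RNA was measured in 30 Wistar rats, 1 array per rat and 5 rats in each of 6 groups. The rats were 12 weeks old when obtained, before surgery, and were older when the glands were taken. The groups were sham-operated males (control males), orchiectomized males (ORX), orchiectomized males given testosterone (ORX + T), sham-operated females (control females), ovariectomized females (OVX) and ovariectomized females given estradiol (OVX + E). The depot hormones were injected once under the skin, 5 mg testosterone or 0.5 mg estradiol per 100 g body weight, 14 days after surgery, and glands were taken 4 weeks after surgery. A vehicle injection of the other groups is not described in the sources used here, so hormone and injection cannot be told apart. All rats lived under 14 h of light and 10 h of darkness with lights on at 6 am, and the experiments were done between 10 and 11 am. No hour is given for the single rat, so the hour of death and the group cannot be told apart. Whole adrenals were used, cortex and medulla together.

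In mammals the circadian clock is a transcriptional loop. The activators BMAL1 and its partners CLOCK or NPAS2 switch on the Per and Cry genes, whose proteins return to the nucleus and repress the activators. DBP is an output activator that binds D-box elements, and NFIL3 (also called E4BP4) represses through the same elements. Nuclear receptors of the ROR and REV-ERB families set the rhythm of Bmal1 through ROR elements. In rodent peripheral organs the RNAs of Dbp and the Per genes peak at nearly the opposite time of day to those of Bmal1, Npas2 and Nfil3. The adrenal has a clock of its own, known for gating the gland's response to ACTH, and Per1 is also induced directly by glucocorticoids. The 7 genes were therefore described in 2 phase sets: Dbp, Per1, Per2 and Per3 on one side, Bmal1, Npas2 and Nfil3 on the other.

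RefSeq promoters of the rat GRCr8 assembly, 250 bases before to 50 after the annotated start, were found for all 7 genes and searched on both strands for the E-box CACGTG, the D-box TTANGTAA, the ROR element TAGGTCA and the cyclic AMP element TGACGTCA. A single window per gene was searched, the first listed, so any other start of a gene and sites farther away were not covered. Only 2 of the 7 windows held a match, and they are shown because each match belongs to a class of factor named above. The Bmal1 window, chr1:176766078-176766377 on the plus strand, held a ROR element from base -16 to -10 before the start, in capitals here.
Bmal1: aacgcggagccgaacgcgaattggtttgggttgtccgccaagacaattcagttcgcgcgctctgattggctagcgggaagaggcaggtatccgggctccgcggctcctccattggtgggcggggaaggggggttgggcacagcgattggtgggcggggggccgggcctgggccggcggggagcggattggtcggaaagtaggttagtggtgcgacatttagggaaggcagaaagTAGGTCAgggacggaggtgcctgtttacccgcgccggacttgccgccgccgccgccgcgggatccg
The Per2 window, chr9:99496944-99497243 on the minus strand, held a D-box from base -192 to -185, again in capitals.
Per2: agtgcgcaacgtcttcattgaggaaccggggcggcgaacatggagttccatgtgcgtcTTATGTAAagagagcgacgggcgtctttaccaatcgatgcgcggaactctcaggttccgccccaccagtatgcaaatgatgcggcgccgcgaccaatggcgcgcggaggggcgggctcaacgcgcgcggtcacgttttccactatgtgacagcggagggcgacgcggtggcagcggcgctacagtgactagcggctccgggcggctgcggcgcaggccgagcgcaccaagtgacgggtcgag
Among 33469 promoter windows of the same length, 2.63% held the ROR element, 2.24% the D-box, 6.42% the E-box and 1.83% the cyclic AMP element. These matches are a description of the letters in the window, and no binding was measured.

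The values are log2 signals as the authors normalized them, so a difference of 1 is a doubling of signal, and a level of one gene is not set against that of another. A gene was called changed at an adjusted p under 0.05 in limma, with Benjamini-Hochberg adjustment over all 14557 genes. The arrays differed in the spread of their signals. The SD over all probe sets was 1.67 to 1.75 in 20 arrays and 1.43 to 1.60 in the other 10. The 10 arrays of narrow spread were 1 in each control group and 2 in each of the other 4 groups. They carried the replicate numbers 2, 3 and 5 and never 1 or 4. The array numbered 5 was narrow in every group except control males. All 5 measured markers of the zona fasciculata and all 6 of chromaffin cells had group means above the array median in every group, so both cortex and medulla were present. The 1 measured red blood cell marker lay under the median.

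Dbp rose in every gonadectomized group. It was called up in ORX, ORX + T, OVX and OVX + E, each against the control of its sex, by 2.60-fold to 3.95-fold. In control males the log2 signal of Dbp was 8.84, 8.57, 8.003, 8.82 and 8.93 in the 5 rats, 8.63 ± 0.38 (SD, n = 5). In ORX it was 9.81, 10.12, 9.92, 10.17 and 10.04, and in ORX + T 10.05, 10.02, 10.16, 10.29 and 10.22. All 10 gonadectomized males therefore lay above all 5 control males, and the rats with and without testosterone overlapped. In control females Dbp was 7.55, 7.28, 7.46, 7.47 and 6.92, 7.34 ± 0.25 (SD, n = 5). In OVX it was 8.74, 9.05, 8.61, 9.36 and 9.22, and in OVX + E 9.52, 9.04, 8.89, 9.77 and 9.36. The female groups were ordered as the male ones, with no overlap between operated and control rats.

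The rise of Dbp was 1.38 ± 0.17 (log2, SE) in ORX, with an adjusted p of 0.000138 in limma, and 1.66 ± 0.17 in OVX, with an adjusted p of 4.66e-06. It was 1.52 in ORX + T (adjusted p = 5.1e-06) and 1.98 in OVX + E (adjusted p = 9.84e-08). Replacement itself did not move Dbp past the threshold: ORX + T exceeded ORX by 0.14 (95% interval -0.22 to 0.49) and OVX + E exceeded OVX by 0.32 (95% interval -0.03 to 0.67). The response to gonadectomy was not shown to differ between the sexes, since OVX exceeded ORX in its response by 0.28 with a 95% interval of -0.22 to 0.78. Control females had less Dbp signal than control males, by -1.30 ± 0.17 (adjusted p = 0.00024), and their ranges did not overlap. In ORX against control males, Dbp was the 1 gene of 14557 called up. It was also first by p in OVX and in OVX + E against control females.

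**Figure D1:**
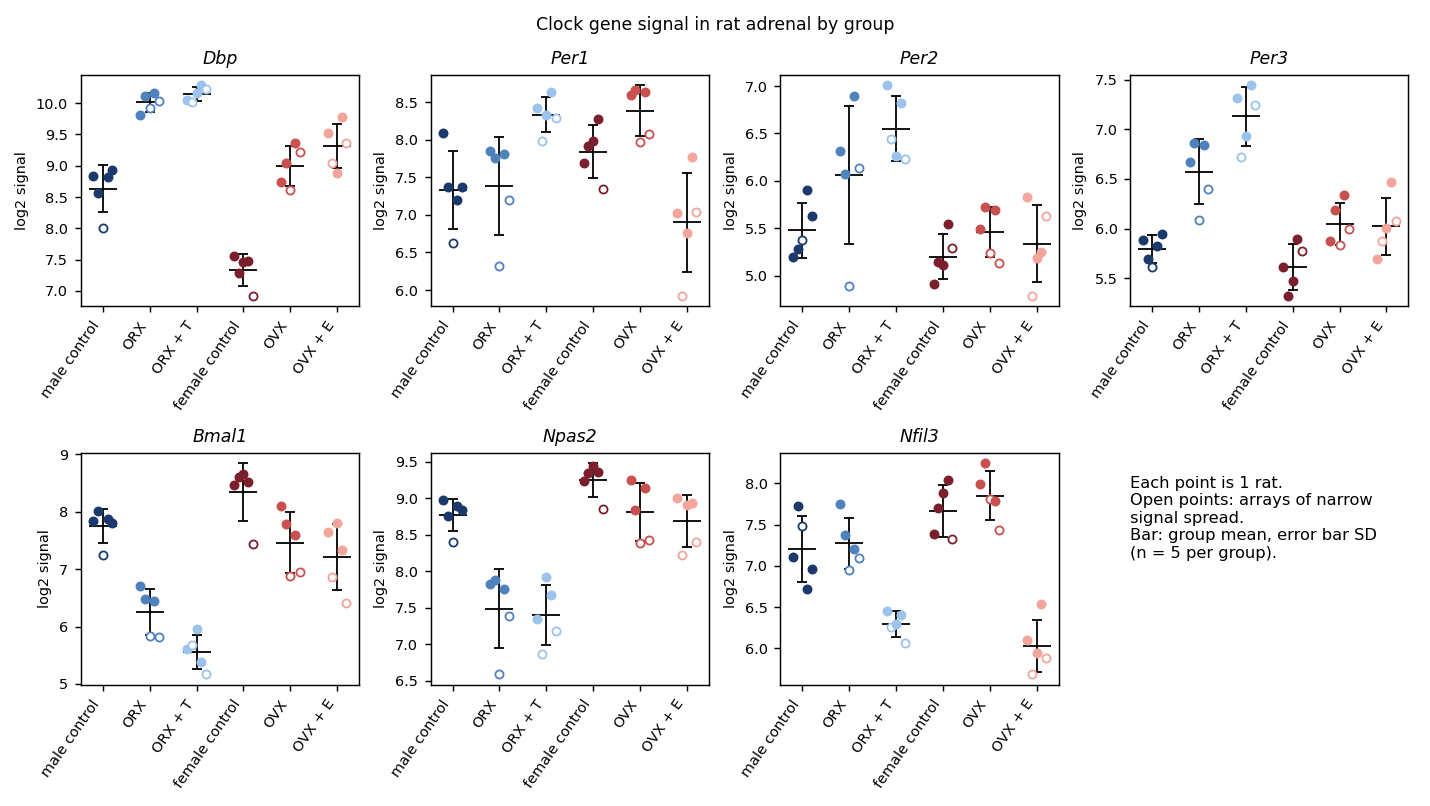
Log2 signal of the 7 clock genes (vertical axes) in the 6 groups (horizontal axes), 1 point per rat, with the group mean and SD (n = 5) in black and arrays of narrow signal spread as open points. Dbp is above its control range in all 20 gonadectomized rats, while Nfil3 is below the control range only in ORX + T and OVX + E.

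The Per genes, which encode the repressors of the loop, did not move as 1 set. In males given testosterone Per2 and Per3 rose and Per1 did not pass the test, and in females none of the 3 passed against control. Per3 in control males was 5.89, 5.69, 5.61, 5.82 and 5.95. In ORX it was 6.67, 6.86, 6.09, 6.84 and 6.40, and in ORX + T 7.32, 6.72, 6.93, 7.44 and 7.24. All 10 gonadectomized males exceeded all control males. Per3 was higher by 0.78 ± 0.16 (log2, SE) in ORX, with an adjusted p of 0.0529 that narrowly missed the threshold, and rose by 1.34 ± 0.16 in ORX + T (adjusted p = 6.92e-06). The ORX difference of Per3 passed in all 4 fits that allow for the spread of the arrays (weights per array, quantile normalization, the array SD as a covariate, and the narrow arrays left out), at 0.82 to 0.95 with adjusted p between 8.13e-06 and 0.00927, and without ORX replicate 3 (0.90, adjusted p = 0.0131).

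In females Per3 was 5.62 ± 0.23 (SD, n = 5) in controls, 6.05 ± 0.21 in OVX and 6.02 ± 0.29 in OVX + E. The differences from control were 0.43 and 0.41, the ranges overlapped, and neither passed (adjusted p = 0.839 and 0.83). In OVX Per3 passed under array weights alone of the 4 fits (0.60, adjusted p = 0.00329). Per2 was 5.48 ± 0.29 in control males, 6.06 ± 0.73 in ORX and 6.55 ± 0.35 in ORX + T. It rose in ORX + T by 1.07 ± 0.25 (adjusted p = 0.0274), with all 5 rats above all control males. That call was lost when any of control replicates 1, 2 and 3 or ORX + T replicates 1 and 4 was left out, with adjusted p up to 0.12, with the male arrays fitted alone (adjusted p = 0.156) and under median centring (adjusted p = 0.0908). In the 4 fits that allow for the array spread the ORX + T call of Per2 was kept, at 1.07 to 1.19 (adjusted p up to 0.00368). In ORX the signal of Per2 ran from 4.90 to 6.89, a difference of 0.58 that did not pass (adjusted p = 0.959). The lowest value was that of replicate 3, an array of narrow spread, and the other 4 ORX rats lay above all control males. The ORX difference of Per2 passed in 2 of the 4 fits that allow for array spread, array weights (0.86, adjusted p = 0.00139) and the narrow arrays left out (0.92, adjusted p = 0.0416). In females Per2 lay at 5.20 ± 0.23 in controls, 5.46 ± 0.26 in OVX and 5.34 ± 0.41 in OVX + E, all overlapping.

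Per1 was the member whose response to hormone went opposite ways in the sexes. In ORX it was 7.85, 7.76, 6.32, 7.81 and 7.20, and in ORX + T 8.42, 7.99, 8.33, 8.63 and 8.29. In OVX it was 8.60, 8.66, 7.96, 8.64 and 8.07, and in OVX + E 7.02, 5.92, 6.75, 7.76 and 7.04. Every male given testosterone lay above every ORX male, and every female given estradiol lay below every OVX female. The control males were at 7.33 ± 0.52 (SD, n = 5), a mean just under that of ORX (7.39) and below that of ORX + T (8.33). The control females were at 7.84 ± 0.35 (SD, n = 5), between the means of OVX + E (6.90) and OVX (8.39). Per1 fell by 1.49 ± 0.29 (log2, SE) in OVX + E against OVX, with an adjusted p of 0.0033 in limma. The difference of 0.94 ± 0.29 in ORX + T against ORX did not pass (adjusted p = 0.126) but passed in 3 of the 4 fits that allow for the array spread, with adjusted p between 0.0011 and 0.0036, and not without the narrow arrays (0.65, adjusted p = 0.0798). The difference of 1.001 in ORX + T against control males did not pass either (adjusted p = 0.157), and it passed in all 4 of those fits, at 0.95 to 1.09. In OVX + E against control females Per1 differed by -0.94 (adjusted p = 0.415), a difference that passed in 3 of the 4 fits, with adjusted p between 0.0103 and 0.0272, and not without the narrow arrays (-0.79, adjusted p = 0.069). Females minus males, the effect of replacement differed by -2.43 ± 0.42 in the same fit (adjusted p = 0.000948). This sex difference kept its call in all 11 alternative settings, between -2.51 and -2.10, and with any single array left out. The same difference taken against the controls was -1.94 ± 0.42 (adjusted p = 0.0266). It passed in 10 of the 11 settings and was lost under median centring (adjusted p = 0.0798). It was also lost when any of control female replicates 2, 3 and 4, OVX + E replicate 2, control male replicates 3 and 4 or ORX + T replicates 1 and 4 was left out, with adjusted p up to 0.0735.

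Gonadectomy alone left Per1 close to control in males, at a difference of 0.06 (95% interval -0.54 to 0.67), and at 0.55 (95% interval -0.06 to 1.15) in females, where it passed under array weights (0.66, adjusted p = 0.015) but in none of the other 3 fits. Both intervals still allow differences of over 0.5. The other glucocorticoid-induced genes measured were Fkbp5, Zbtb16, Klf9, Dusp1, Ddit4 and Mt2A. Fkbp5, a co-chaperone of the glucocorticoid receptor, and Zbtb16 had the signs of Per1 in both comparisons of hormone with gonadectomy alone. The signal of Fkbp5 was 7.68 ± 0.33 in ORX, 8.65 ± 0.42 in ORX + T, 7.38 ± 0.32 in OVX and 6.52 ± 0.43 in OVX + E (SD, n = 5). Zbtb16 was at 6.48 ± 0.58, 7.06 ± 0.44, 5.78 ± 0.32 and 5.39 ± 0.37 in the same order, and passed in neither comparison. Fkbp5 rose by 0.97 in ORX + T against ORX (adjusted p = 0.0137), fell by 0.86 in OVX + E against OVX (adjusted p = 0.0402) and had a difference between the sexes of -1.83 (adjusted p = 0.000948). The list as a whole did not move that way. In ORX + T against ORX 1 of the 6 was called up (Fkbp5) and 1 down (Dusp1), with a median of -0.36. Only Fkbp5 passed in OVX + E against OVX, with a median of -0.31. The medians over all genes were -0.01 and 0.02 in the same order. The paper reported that serum corticosterone rose after ORX and that testosterone reversed this. In females it reported a fall after OVX and control values again with estradiol. The part of glucocorticoids in these values was not tested.

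Bmal1, the core activator, moved against Dbp. In control males it was 7.84, 8.01, 7.24, 7.88 and 7.80, 7.76 ± 0.30 (SD, n = 5). In ORX it was 6.71, 6.48, 5.84, 6.45 and 5.81, and in ORX + T 5.60, 5.68, 5.95, 5.38 and 5.17. Every gonadectomized male lay below every control male. Bmal1 fell by 1.50 ± 0.27 (log2, SE) in ORX (adjusted p = 0.0161). It fell by 2.20 ± 0.27, or 4.59-fold, in ORX + T (adjusted p = 1.25e-05). In ORX Bmal1 passed in the 4 fits that allow for the array spread, with smaller differences of -1.37 to -1.31 (adjusted p up to 4.67e-05). The ORX call of Bmal1 was lost when any of control replicates 2, 4 and 5 or ORX replicates 3 and 5 was left out, with adjusted p up to 0.0707, and under median centring (adjusted p = 0.0668).

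In control females Bmal1 was 8.47, 8.60, 8.66, 8.52 and 7.45, the last on an array of narrow spread. In OVX it was 8.10, 7.79, 6.89, 7.60 and 6.95, and in OVX + E 7.64, 6.87, 7.81, 7.34 and 6.41. Each operated group overlapped the controls through that rat, and the other 4 controls lay above all 10 operated females. The differences of -0.88 ± 0.27 in OVX and -1.13 ± 0.27 in OVX + E did not pass (adjusted p = 0.43 and 0.0949). Both passed in all 4 fits that allow for the array spread, OVX at -0.85 to -0.73 with adjusted p between 0.00074 and 0.00608, and OVX + E at -1.05 to -0.91 with adjusted p between 0.00011 and 0.00256. OVX + E also passed without control female replicate 5 (-1.35, adjusted p = 0.0142) and without OVX + E replicate 3 (-1.27, adjusted p = 0.0497). Between ORX + T and ORX the difference of -0.70 ± 0.27 did not pass (adjusted p = 0.354) but passed in the same 4 fits, at -0.98 to -0.75. The response to gonadectomy was not shown to differ between the sexes for Bmal1 (0.62, 95% interval -0.17 to 1.41).

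Npas2, which encodes the alternative partner of BMAL1, fell in both male groups. It was 8.78 ± 0.22 in control males, 7.49 ± 0.54 in ORX and 7.40 ± 0.42 in ORX + T (SD, n = 5), and the operated males ran from 6.59 to 7.93 against 8.41 to 8.98 in controls, with no overlap. The falls were 1.29 ± 0.23 (log2, SE; adjusted p = 0.0144) and 1.38 ± 0.23 (adjusted p = 0.000879). In ORX Npas2 passed in the 4 fits that allow for the array spread, with smaller differences of -1.18 to -1.04 (adjusted p up to 4.67e-05). The ORX call of Npas2 disappeared when control replicate 4 or 5, or ORX replicate 5, was removed, with adjusted p up to 0.0707, and it was also lost under median centring (adjusted p = 0.0668) and with the male arrays fitted alone (adjusted p = 0.081). In females Npas2 was 9.25 ± 0.23 in controls, 8.81 ± 0.40 in OVX and 8.69 ± 0.36 in OVX + E, with overlapping ranges and differences of -0.44 and -0.56 that did not pass. Females minus males, the effect of gonadectomy on Npas2 differed by 0.85 (95% interval 0.18 to 1.51) and did not pass over all genes (adjusted p above 0.99). It passed in 2 of the 4 fits that allow for array spread, quantile normalization (0.75, adjusted p = 0.0105) and the array SD as a covariate (0.75, adjusted p = 0.0202).

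Nfil3 departed from the other members of its phase set, for its signal was lower with hormone and not after gonadectomy alone. In control males it was 7.11, 7.73, 7.49, 6.72 and 6.97, in ORX 7.75, 7.38, 6.95, 7.20 and 7.09, and in ORX + T 6.45, 6.26, 6.30, 6.41 and 6.06. In control females it was 7.38, 7.70, 7.88, 8.04 and 7.32, in OVX 7.99, 8.24, 7.81, 7.79 and 7.43, and in OVX + E 6.10, 5.69, 5.95, 6.54 and 5.88. In both sexes the gonadectomized and control rats overlapped, and all 5 hormone-treated rats lay below both groups. The difference after gonadectomy alone was 0.07 (95% interval -0.32 to 0.46) in males and 0.19 (95% interval -0.20 to 0.57) in females. With testosterone Nfil3 fell by 0.98 ± 0.19 (log2, SE) against ORX (adjusted p = 0.00206) and by 0.91 against control males (adjusted p = 0.00994). The last call was lost without control male replicate 2 (adjusted p = 0.0531). With estradiol it fell by 1.82 ± 0.19 against OVX (adjusted p = 9.41e-07) and by 1.63 against control females (adjusted p = 2.16e-05). The fall was larger in females by 0.84 ± 0.27, which did not pass (adjusted p = 0.16).

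**Figure D2:**
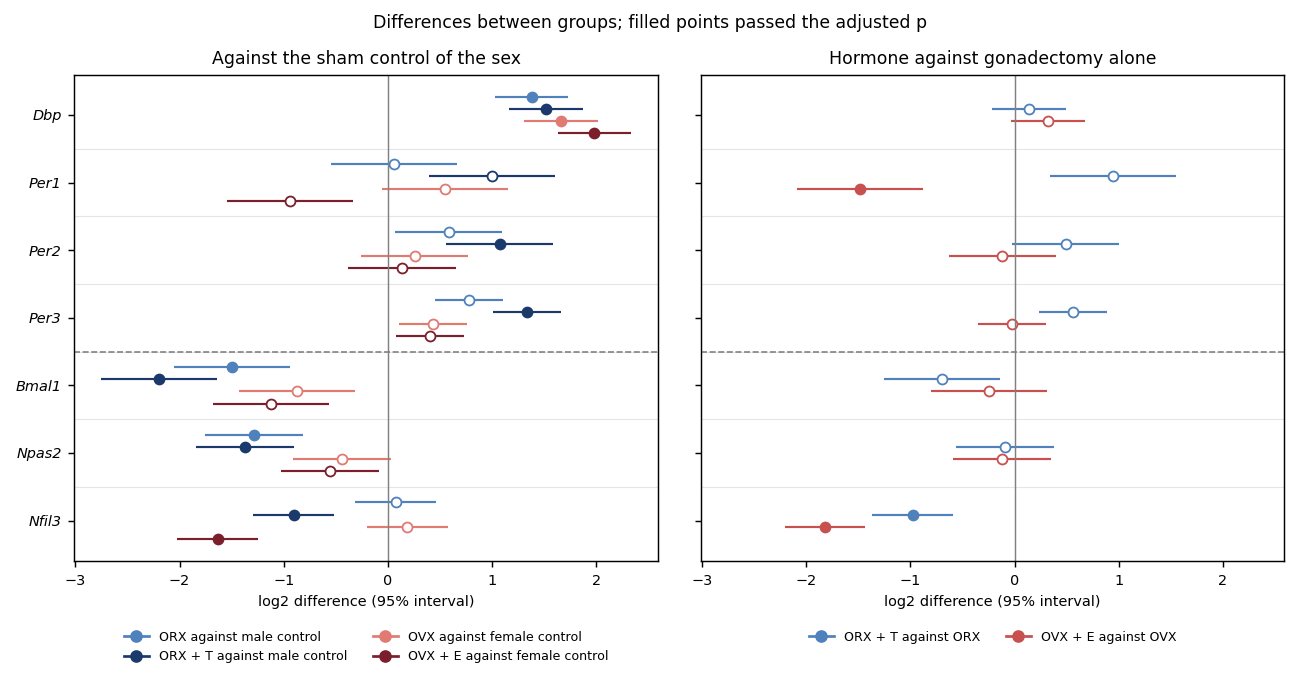
Log2 differences of the 7 genes with 95% intervals (horizontal axes), against the control of each sex on the left and for hormone against gonadectomy alone on the right, with filled points where the adjusted p was under 0.05 and a dashed line between the phase sets. Dbp is filled in all 4 comparisons with control, and in the right panel only Nfil3 in both sexes and Per1 in females are filled.

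Counted over the set, 3 of 7 members were called in ORX against control males, 1 up and 2 down, where 0.00687% of all genes were called up and 0.0481% down. In ORX + T against control males 6 of 7 were called, 3 up and 3 down, against 0.632% of genes up and 0.309% down, and the one not called was Per1. In OVX against control females 1 was called up, where 0.151% of all genes were up and 0.0137% down. In OVX + E against control females 1 was up and 1 down (Nfil3), against 0.0481% up and 0.185% down. Hormone against gonadectomy alone called 1 member in males (Nfil3) and 2 in females (Nfil3 and Per1), beside 2.05% and 1.69% of all genes in either direction. These comparisons share control or gonadectomized rats and are not independent of each other. The members were chosen with earlier results of these data known. The counts, also those of the pooled comparison below, are therefore no test of the set against all genes. The shares over all genes also hold the members: in ORX the 1 gene up was Dbp, and 2 of the 7 genes down were Bmal1 and Npas2.

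Averaged over both sexes and over the groups with and without hormone, gonadectomized rats differed from sham rats in 5 of the 7 members, where 0.0618% of all genes were called up and 0.055% down. Dbp rose by 1.63 ± 0.11 (log2, SE; adjusted p = 9.05e-11) and Per3 by 0.74 (adjusted p = 9.21e-05), while Bmal1 fell by 1.42 (adjusted p = 1.78e-05), Npas2 by 0.91 (adjusted p = 0.00101) and Nfil3 by 0.57 (adjusted p = 0.0359). The Nfil3 value averages groups with and without a fall, and it lost its call in 4 of 11 fits and when single arrays of any group were left out, with adjusted p up to 0.112. Per1 and Per2 did not pass, at 0.17 and 0.51. Rat by rat, the mean shift of Dbp, Per1, Per2 and Per3 from the control mean of the sex was 0.99 to 1.49 in ORX + T, with the opposite set at -1.77 to -1.19. The corresponding ranges were -0.001 to 1.12 and -1.45 to -0.48 in ORX, 0.41 to 1.01 and -0.82 to 0.03 in OVX, and -0.09 to 0.82 and -1.52 to -0.82 in OVX + E. In OVX + E the first mean joins Dbp and Per1, whose shifts from control had opposite signs (1.98 and -0.94). The second mean there had its largest part from Nfil3 (-1.63, called), beside -1.13 for Bmal1 and -0.56 for Npas2, which did not pass.

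Between the sexes, 0.433% of genes were called in control females against control males, and of the 7 only Dbp. Bmal1, Npas2 and Nfil3 were higher in control females by 0.58, 0.47 and 0.46 without passing. Bmal1 and Npas2 did pass in all 4 fits that allow for array spread, Bmal1 at 0.61 to 0.71 and Npas2 at 0.48 to 0.52. When the effect of gonadectomy itself was set against sex, 0.00687% of genes and 0 of the 7 were called in limma, with Npas2 alone of the members at an unadjusted p under 0.05 (0.0144). For the response to replacement 1.57% of genes and 1 member (Per1) were called, and for the replaced groups against control 0.474% and again Per1. In that last contrast (females minus males) Bmal1 at 1.07 and Npas2 at 0.82 did not pass, but in all 4 fits that allow for array spread both did, Bmal1 at 1.12 to 1.27 with adjusted p between 0.0003 and 0.00192 and Npas2 at 0.77 to 0.96 with adjusted p between 6.64e-05 and 0.0267. Per3 at -0.93 (adjusted p = 0.0581) passed in 3 of the 4, all but quantile normalization (adjusted p = 0.0992).

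The order of the groups differed by gene. Dbp ran from ORX + T through ORX, OVX + E, OVX and control males to control females, and neighbours overlapped except ORX over OVX + E and control males over control females. Bmal1 ran from control females through control males, OVX and OVX + E to ORX and ORX + T, and each neighbouring pair overlapped. For Npas2 a gap separated the 4 upper groups from ORX and ORX + T, and for Nfil3 a gap separated the 4 groups without hormone from ORX + T and OVX + E. The neighbouring groups of Per1, Per2 and Per3 all overlapped.

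Rats of one group were then compared with each other, as deviations of each array from its group mean. Over all 30 arrays 20 of the 21 pairs of members correlated above 0, and 13 had a Benjamini-Hochberg p under 0.05 over the 21 pairs in a permutation test within groups. Pairs across the phase sets were positive as well as pairs within them (medians 0.33 across and 0.54 among Dbp and the Per genes). The deviations of the members also followed the SD of the arrays, with r from 0.43 for Per3 to 0.88 for Npas2, and over all genes the median size of that r was 0.74. Within the 20 arrays of wide spread, with deviations taken anew from the means of the 3 or 4 such arrays of each group, 11 of 21 pairs were above 0, 9 changed sign, and 2 had an adjusted p under 0.05.

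Those 2 pairs set Bmal1 against genes of the other phase. Dbp and Bmal1 had r = 0.23 (permutation p = 0.296) and rho = 0.06 (permutation p = 0.771) over 30 arrays, and r = -0.78 (permutation p = 0.0013, adjusted over the 21 pairs 0.0183) and rho = -0.83 (permutation p = 0.00026) over the 20 wide arrays. Leaving out the 2 arrays farthest from the Dbp median gave 0.27 and -0.73, and leaving out any single wide array gave -0.87 to -0.74. Per3 and Bmal1 had r = 0.04 (permutation p = 0.836) and rho = -0.03 (permutation p = 0.907) over 30 arrays, and r = -0.80 (permutation p = 0.00174, adjusted 0.0183) and rho = -0.82 (permutation p = 0.00131) over the 20. Without the 2 arrays farthest from the Per3 median these were -0.06 and -0.83. Among the 10 narrow arrays, of which only 4 groups hold a pair, r was -0.43 and -0.78, with no firm reading at that number. With the array SD regressed out of all 30 arrays r was -0.35 for Dbp with Bmal1 and -0.63 for Per3 with Bmal1.

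Other pairs lost their relation among the wide arrays. Per1 with Npas2 went from 0.78, the largest of the 21, to 0.12, and Bmal1 with Npas2 from 0.75 to 0.34 and, without the 2 arrays farthest from the Bmal1 median, to -0.04. Per1 with Per3 stood at 0.64 over all arrays and 0.54 over the wide ones, and Dbp with Per3 at 0.44 and 0.54, neither of them past the threshold among the wide arrays (adjusted p = 0.379 and 0.395). The part of array spread in the pooled correlations was not tested beyond these values.

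**Figure D3:**
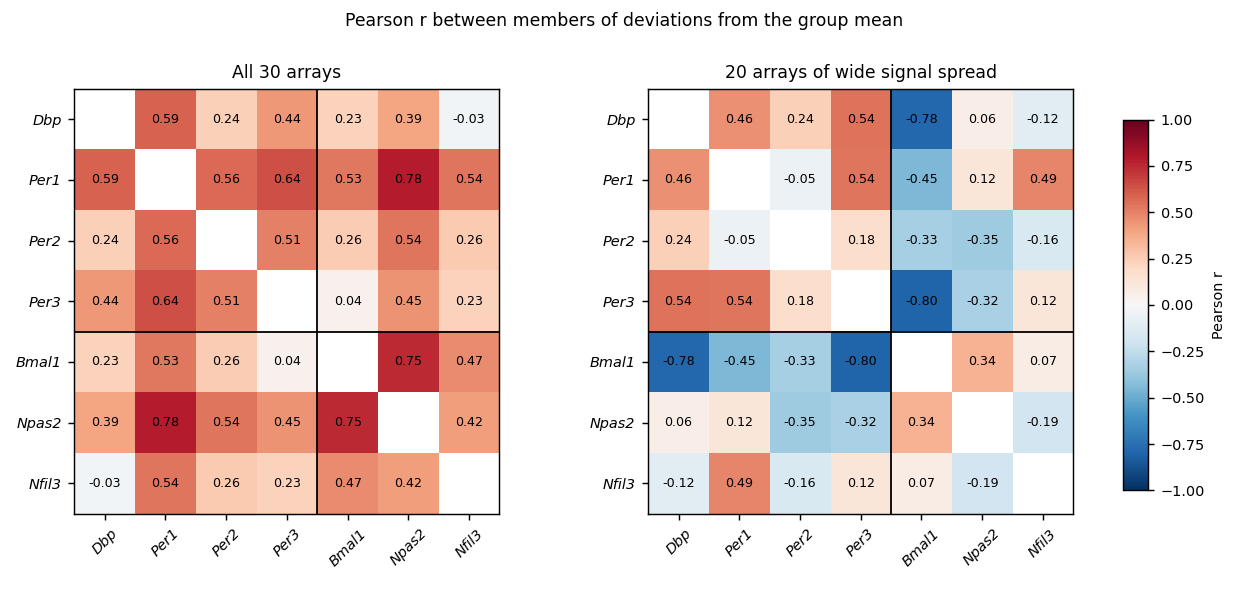
Pearson r between each pair of the 7 genes for deviations from the group mean, over all 30 arrays on the left and the 20 arrays of wide signal spread on the right, with black lines between the phase sets. Nearly all cells on the left are positive, while on the right Bmal1 is at -0.78 with Dbp and -0.80 with Per3.

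**Figure D4:**
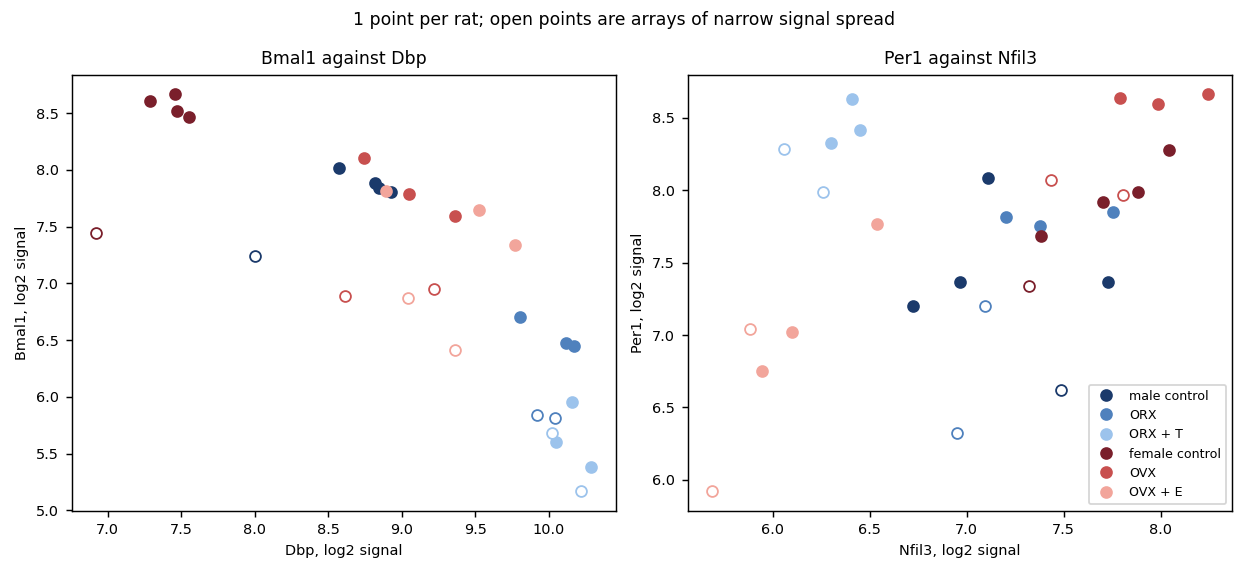
Bmal1 against Dbp on the left and Per1 against Nfil3 on the right (log2 signal on all axes), 1 point per rat, coloured by group, with arrays of narrow spread open. Within most groups the filled points of the left panel fall from upper left to lower right and the open points lie below them; in the right panel ORX + T and OVX + E share low Nfil3 and part in Per1.

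The genes whose log2 signal over all 30 arrays was most like that of Dbp included another member, and those least like it were led by members of the opposite set. The 5 highest Pearson r with Dbp were Mturn at 0.86, Per3 at 0.81, Nrep at 0.75, the lipid droplet protein gene Cidea at 0.71 and Olah at 0.71. The 5 lowest were Bmal1 at -0.80, Npas2 at -0.73, Ninl at -0.68, Sptssb, a subunit of the first enzyme of sphingolipid synthesis, at -0.63, and Vdr, the vitamin D receptor, at -0.62. Out of 14556 other genes Bmal1 was thus last and Npas2 next to last. The remaining members were less extreme with Dbp, Per2 at 0.65, Per1 at 0.11 and Nfil3 at -0.49. For Bmal1 the highest were Npas2 at 0.93, Sptssb at 0.87, Sobp and Ninl at 0.85 each and Arhgap10 at 0.85, and the lowest were Per3 at -0.82, Dbp at -0.80, the lipid droplet coat gene Plin5 at -0.77, Mfsd2a at -0.75 and Serpina3n at -0.74. With Bmal1, Nfil3 was at 0.53 and Per1 at -0.015. These values hold the shift between groups. For deviations within groups r with Dbp was 0.34 for Mturn and 0.44 for Per3. The 5 genes lowest with Dbp were then all above 0. Their r was 0.23 for Bmal1, 0.39 for Npas2, 0.52 for Ninl, 0.04 for Sptssb and 0.37 for Vdr. Within groups r with Bmal1 was 0.75 for Npas2, 0.82 for Sptssb, -0.71 for Plin5 and 0.04 for Per3. All of these are open to the array spread as above.

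Other genes of the clock were measured in part. Of 13 further core genes and nuclear receptors 5 had a named probe set (Clock, Cry1, Cry2, Bhlhe40 and Timeless), the others were not analysed here, and none of the 5 passed in any of the 11 comparisons, with 12 of the 55 tests at an unadjusted p under 0.05. Cry2, a repressor partner of the PER proteins, was at 7.16 ± 0.29 in control males, 7.40 ± 0.45 in ORX and 8.10 ± 0.27 in ORX + T (SD, n = 5), a difference of 0.94 from control in ORX + T (adjusted p = 0.106). Clock, the partner of BMAL1, differed by -0.51 in ORX + T and -0.43 in OVX + E, and Cry1 by -0.71 in OVX + E (adjusted p = 0.161). Bhlhe40, which encodes a repressor of the loop, had the lowest p of the 55 tests, at 8.35 ± 0.41 in control females and 9.04 ± 0.16 in OVX (SD, n = 5), without overlap and with a difference of 0.69 that did not pass (adjusted p = 0.137). In the pooled comparison of gonadectomized with sham rats 3 of the 5 were above 0, and 4 had an unadjusted p under 0.05 in limma. Their median of 0.02, beside -0.01 over all genes, therefore joins genes that went both ways. Of 4 measured kinases and cofactors that act on clock proteins (Csnk2a1, Gsk3b, Nono and Prkaa1) none passed in any comparison, and 0 of the 44 tests had an unadjusted p under 0.05.

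Among 7 measured output genes of the clock, Coq10b, which encodes a coenzyme Q binding protein, was alone in passing. It was 10.63 ± 0.13 in OVX and 9.06 ± 0.51 in OVX + E (SD, n = 5), a fall of 1.57 (adjusted p = 9.89e-07), and it fell by 1.04 against control females (adjusted p = 0.00216), with no call in males. The median of the 7 was -0.17 in OVX + E against OVX, beside 0.02 over all genes.

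Genes that answer to handling or stimulus were set beside the members. Of 8 measured immediate early genes, transcription factors that respond within minutes, 5 rose in control females against control males, among them Fos by 2.68 (adjusted p = 0.00701) and Junb by 2.57 (adjusted p = 0.00159), with all 8 above 0 and a median of 1.23 against 0.02 over all genes. In OVX + E against OVX 0 of 8 were above 0, and Fosb fell by 2.34 (adjusted p = 7.36e-07) and Nr4a2 by 2.10 (adjusted p = 3.0e-05), with a median of -0.69. Those 2 comparisons are ones in which Dbp or Per1 and Nfil3 were called. In OVX + E against control females, where Dbp and Nfil3 were called, 0 of the 8 were above 0, with a median of -0.85. There 6 had an unadjusted p under 0.05 and 1 was called down. In OVX against control females, where Dbp was called, 1 of the 8 was called up and the median was -0.10. In ORX + T against control males 0 of the 8 passed, 2 had an unadjusted p under 0.05 and the median was 0.22. In ORX against control males, where Dbp, Bmal1 and Npas2 were called, 0 of the 8 passed, 1 had an unadjusted p under 0.05 and the median was 0.06. Of 5 measured cold- and heat-responsive genes the heat shock gene Hspa1b rose by 0.69 in OVX and fell by 0.94 in OVX + E against OVX, and Dnajb1 fell by 1.28 in the latter. None of the 5 passed in ORX or in ORX + T against control males, where 0 and 2 of them had an unadjusted p under 0.05. The part of handling in the members' values was not tested.

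In whole glands a change in the share of a cell type and a change of RNA per cell cannot be told apart. The 9 measured markers of capsule cells and fibroblasts were all above 0 in ORX + T against control males, 1 of them called, and their summed signal (log2) was 11.22 to 11.34 in ORX + T against 10.96 to 11.16 in control males. All 5 zona glomerulosa markers were below 0 in ORX + T, with a sum of 10.09 to 10.78 against 10.70 to 11.10. In OVX + E against control females 1 of the 5 was above 0, with a median of -0.37. There the sum was 9.75 to 10.83 against 10.455 to 11.20. None of the 5 was called against control, and 1 was called down against gonadectomy alone in each sex. The 6 chromaffin markers were below 0 in ORX and in ORX + T without a call, at 11.05 to 11.90 and 11.18 to 11.73 against 11.44 to 12.09. In OVX + E against control females 1 of the 6 was above 0, with a median of -0.49. There 5 had an unadjusted p under 0.05 in limma and none was called. In the pooled comparison of gonadectomized with sham rats 0 of the 6 were above 0, with a median of -0.31. Of these, 4 had an unadjusted p under 0.05, again without a call. In ORX + T and in control males 9 of 9 capsule markers, 4 of 5 of the zona glomerulosa and 6 of 6 chromaffin markers had a group mean above the array median. Of the 5 zona fasciculata markers, Cyp11b1, which makes corticosterone, fell by 0.67 in ORX + T against control males (adjusted p = 0.000549). Against ORX, Cyp11b1 fell by 0.97 (adjusted p = 7.24e-07) and Akr1b7 by 0.46, while Mc2r, the ACTH receptor, rose by 0.996 (adjusted p = 0.000496), and Nfil3 was called there too. The summed signal of that list was 12.84 to 13.15 in ORX + T, 13.07 to 13.38 in ORX and 13.04 to 13.29 in control males. The summed signal of 6 adipocyte markers was higher in OVX (9.40 to 10.11) than in control females (8.28 to 9.21) with no overlap, beside the rise of Dbp. In males it was 10.10 to 10.43 in controls, 9.41 to 10.17 in ORX and 10.57 to 10.94 in ORX + T. Cidea carried that sum, at 8.59 ± 0.53 in control females and 9.599 ± 0.35 in OVX (SD, n = 5; difference 1.01, adjusted p = 0.0572). The other 5, Adipoq, Plin1, Cfd, Lep and Ucp1, had group means of 3.84 to 4.99, near the array median, in all 6 groups. The part of cell makeup in the members' values was not tested.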

How the data were processed

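The deposited table holds log2 signals of 36685 probe sets on 30 arrays, which the authors background-corrected, normalized and summarized by RMA (affy package, annotation from the oligo package; versions not given in the sources used here). The probe annotation paired 14824 probe sets with 1 symbol, 829 with several and 21032 with none; the brightest of each symbol was kept, which left 14557 genes, and no further scaling was applied. The SD of the signal differs between arrays, and the sources used here do not say which arrays entered 1 normalization. No 2 arrays were identical. The number of arrays limits the precision; the arrays give no read depth.

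Group means over all 30 arrays were compared with limma 3.58.1 in R 4.3.3 (24 residual and 2.92 prior degrees of freedom, Benjamini-Hochberg within each comparison, adjusted p under 0.05). The further limit of a fold above 2 that the authors applied was an alternative. Correlations between rats used 100000 draws that permuted deviations within groups, two-sided. The labels call the rats biological replicates. Their numbers were not taken to pair rats in the main fit. Of 75 same-numbered pairs 48 correlated above 0.1, and the lowest was at -0.76. Pairs of different numbers were not set beside these, so the values do not decide whether the number matters. The narrow arrays were spread unevenly over the numbers, and the number as a block was an alternative. The fit was tested on simulated data in which the deviations of each gene were shuffled over the arrays separately. That removes the spread that genes of the same array share, so the simulation does not test the fit against it. All 7 members were named; genes of the other lists were named when they passed against control (core clock) or by lowest p, at most 4 a list, and a few more, Cry2, Cry1, Clock, Bhlhe40 and Cidea among them, were added after their values were seen. The members and lists were chosen with earlier results of these data known. The arrays were split at the widest gap of their SDs.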

Additional observations from a re-analysis of the deposited data

Results flagged for a closer look

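In 2 groups 1 array stood apart from the other 4 for Bmal1. In control males replicate 3 was at 7.24 log2 while the other 4 were at 7.80 to 8.01, and its gap to the nearest array was 0.727 of the range of the group. In control females replicate 5 was at 7.45 and the other 4 at 8.47 to 8.66, with a gap of 0.838 of the range. Both arrays were of narrow signal spread. Chance alone flags about 1 in 20 groups, and 42 groups were examined. Per1 responded differently to replacement in the sexes, by -2.43 (log2, females minus males; SE 0.42, adjusted p = 0.000948 in limma), with OVX + E below OVX in 5 of 5 rats and ORX + T above ORX in 5 of 5. Its replaced groups against control also differed between the sexes, by -1.94 (adjusted p = 0.0266).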

How the results depend on the processing

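Beside the values of the report, 12 other settings and the removal of each array in turn were tried. Of 268 values of called members under the settings other than left-out arrays, 253 kept their direction and their call and 15 lost the call, with no change of direction. Dbp kept its call against control in every setting in all 4 gonadectomized groups. The counts of called members moved as follows. In ORX against control males (3 called) array weights gave 5, leaving out the narrow arrays 5 and median centring 1, and single arrays left out gave 1 to 3. In ORX + T against ORX (1 called) array weights gave 4, quantile normalization 3, the array SD as a covariate 4, no narrow arrays 2 and the fold limit 0, with 1 to 2 for single arrays. In OVX against control females (1 called) the first 4 of these settings gave 4, 3, 3 and 2. In OVX + E against control females (2 called) array weights gave 4, quantile normalization 5 and the array SD as a covariate 4. In control females against control males (1 called) the 4 settings gave 5, 3, 3 and 3. The pooled comparison (5 called) gave 2 with the fold limit. The contrast of the sexes in their answer to gonadectomy (0 called) gave 1 under quantile normalization and 1 with the array SD in the model, that for replacement (1 called) gave 3 with the array SD as a covariate, and that in the replaced groups against control (1 called) gave 4, 3, 4 and 4 under the 4 settings, 2 for the 60% of genes with the highest mean and 0 under median centring, with 0 to 2 for single arrays. The replicate number as a block gave 3 in ORX + T against ORX and 2 in the replaced groups against control, and moved no other count by over 1.5 times; 10 of 30 arrays correlated best with their own number. The correlation of Dbp with Bmal1 (0.23) was -0.78 within the wide arrays, -0.43 within the narrow ones, -0.35 with the array SD regressed out, -0.57 after quantile normalization and 0.44 (permutation p = 0.0371) after median centring; it was 0.38 with the replicate block and 0.09 to 0.38 without single arrays. No called value reversed. Of those not called, Per3 in OVX + E against OVX was 0.0568 under quantile normalization, 0.0328 with the array SD in the model and -0.13 to 0.0595 without single arrays; Npas2 there was 0.0277 and 0.0506. The sex difference of Nfil3 in the response to gonadectomy was -0.10 under array weights, -0.0586 without narrow arrays and -0.0177 to 0.23 without single arrays, and that of Npas2 in the response to replacement was 0.0904, 0.20, 0.21 and 0.042 under the 4 settings in their order above, and -0.16 to 0.20 without single arrays. Without single arrays Per1 in ORX was -0.12 to 0.33, Nfil3 in ORX -0.0473 to 0.20, Npas2 in ORX + T against ORX -0.31 to 0.045 and Per2 in OVX + E against OVX -0.24 to 0.0163. The cause of these moves was not tested.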
